A study of Mus musculus with 6 samples.

Results

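The genes described here are 9 carriers and channels that move bicarbonate, chloride and lactate across the membranes of epithelial cells: Slc4a2, Slc4a4, Slc4a7, Slc26a3, Slc26a6, Slc16a1, Slc16a3, Slc12a2 and Cftr. They were chosen by symbol and not by a rule on their values, although earlier results of these data were known. Each is 1 of the 32285 genes listed in each of the 6 libraries. All 9 had counts in every library and passed the filter on low counts in each comparison below. The libraries are single-cell transcriptomes of mouse small intestinal organoids, which are epithelial cultures grown from crypts in medium with EGF, Noggin and R-spondin, collected at day 3. The study asked how blocking acid export from the cell changes the cell types of the crypt.

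Wild type organoids without EIPA, an inhibitor of acid export (WT -EIPA, given the solvent DMSO) and with EIPA at 5 µM (WT +EIPA) were sequenced in 2 libraries each, numbered 1 and 2 after the experiment they came from. The other 2 libraries come from an organoid line made by lentiviral infection of wild type organoids with a doxycycline-inducible Cas9-GFP vector and a guide RNA, selected with puromycin and grown from single clones. That line was sequenced once without doxycycline (CRISPR -Dox) and once with it at 2 µg/mL (CRISPR +Dox), so both CRISPR libraries carry the vector. Organoid stocks were made from adult mice of 10 weeks, and pooling of animals was not stated in the sources used here. Live cells were sorted for all libraries, and the CRISPR +Dox cells were also gated on GFP. Between 12083 and 18211 cells per library were kept (87954 in all) from libraries of 176388405 to 249350351 unique molecular identifiers (UMIs, counted transcripts), and 33 to 78 cell barcodes were shared by any pair of libraries. Levels below are in CPM (a gene's UMIs divided by all UMIs of the summed cells, on the usual CPM scale).

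Epithelial cells set their internal pH by moving protons on one side of the balance and bicarbonate on the other. Exchangers export protons, the carriers of the SLC4 family load or unload bicarbonate, and those of the SLC26 family exchange chloride for bicarbonate at the apical surface that faces the lumen. In the intestine, chloride enters secreting cells from the blood side through NKCC1 (Slc12a2) and leaves them through CFTR, while villus cells absorb chloride in exchange for bicarbonate through DRA (Slc26a3) and PAT1 (Slc26a6). Lactate, the acid made by glycolysis, crosses membranes together with a proton through MCT1 (Slc16a1) and MCT4 (Slc16a3).

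By the GENCODE vM21 annotation of mouse build GRCm38, the 3 genes with the largest excess in enterocyte-like over stem cell-like cells are Slc26a3 (ENSMUSG00000001225) at chr12:31390871-31473917, Slc26a6 (ENSMUSG00000023259) at chr9:108853283-108913049 and Slc16a3 (ENSMUSG00000025161) at chr11:120948480-120960868, all on the plus strand. The bicarbonate carriers are Slc4a2 (ENSMUSG00000028962) at chr5:24423837-24440950, Slc4a4 (ENSMUSG00000060961) at chr5:88886818-89239653 and Slc4a7 (ENSMUSG00000021733) at chr14:14702279-14799940. Slc16a1 (ENSMUSG00000032902) lies at chr3:104638668-104658462 and Cftr (ENSMUSG00000041301) at chr6:18170687-18322768. Slc16a1 overlaps the annotated genes Gm43581 and Gm43585 on its own strand, so its count is uncertain to that extent, and Slc4a2 and Cftr overlap Fastk and Gm15592 on the opposite strand.

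The sequences before the starts of Slc26a3 and Slc16a3 are shown because of their excess in enterocyte-like over stem cell-like cells. The fit of all 6 libraries described below put it at 8.25-fold and 10.8-fold. Each is the run of 250 bases that precedes the RefSeq start (GRCm38.p6, plus strand), and capitals mark matches to 5 short motifs searched on both strands:
Slc26a3, chr12:31437969-31438218: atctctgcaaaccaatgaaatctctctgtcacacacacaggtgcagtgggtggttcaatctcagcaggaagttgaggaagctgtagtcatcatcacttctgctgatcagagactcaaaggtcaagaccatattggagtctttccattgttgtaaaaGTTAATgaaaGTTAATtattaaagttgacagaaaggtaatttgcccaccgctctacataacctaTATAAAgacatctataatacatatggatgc
Slc16a3, chr11:120948817-120949066: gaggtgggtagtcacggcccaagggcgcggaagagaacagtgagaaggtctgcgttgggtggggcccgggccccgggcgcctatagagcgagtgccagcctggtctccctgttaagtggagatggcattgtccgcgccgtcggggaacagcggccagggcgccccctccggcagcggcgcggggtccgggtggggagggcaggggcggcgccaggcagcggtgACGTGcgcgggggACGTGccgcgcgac
Both windows lie inside the GENCODE span of their own gene, since GENCODE lists earlier starts, and are intronic there except for 2 exonic bases in Slc26a3 and 14 in Slc16a3. The corresponding window of Slc26a6, chr9:108853793-108854042, falls wholly in annotated exons of the gene and is not printed. The Slc26a3 window is 38.8% G and C and holds the TATA box letters TATAAA at 30 to 25 bases before the start and a partial site of the HNF1 factors, GTTAAT, at 94 to 89 and at 84 to 79 bases. The Slc16a3 window is 73.6% G and C and holds the core of the hypoxia response element, ACGTG, at 27 to 23 and at 14 to 10 bases before the start. The Slc26a6 window (53.2% G and C) held none of the motifs. The motifs were not limited to these genes, since the Slc16a1 window also holds ACGTG and that of Slc4a7 TATAAA. Among 32851 promoter windows of the same length, TATAAA was found in 12.4%, GTTAAT in 6.43% and ACGTG in 16.6%, and the other motifs searched, TTTATTG for CDX factors and CAAAGTCCA for HNF4, in 4.20% and 0.384%. These motifs do not overlap each other in the windows shown, and a match describes letters only.

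Cells were clustered without the 9 transporters, without their relatives and without 1 other gene (77 genes in all), and clusters were named from marker lists. Of 22 clusters, 16 were named, and the 6 unnamed ones held 16.5% of the cells. The classes used here are ISC-like (intestinal stem cell markers such as Lgr5 and Olfm4), proliferating, enterocyte-like, goblet-like, Paneth-like, enteroendocrine (EEC)-like and tuft-like. The 20 enterocyte markers summed to 25186 to 64859.5 CPM in enterocyte-like cells and to 916 to 1799 CPM in ISC-like cells. The 14 goblet markers did not separate goblet-like from Paneth-like cells, since they summed to 22546 to 41239 CPM in the former and to 42931 to 62121 CPM in the latter. The 18 EEC markers summed to 36153 to 42513 CPM in the EEC-like cells of the 4 WT libraries but to 4535 CPM (4 markers at 0) in CRISPR -Dox and 5109 CPM (1 marker at 0) in CRISPR +Dox, so the EEC-like class of the CRISPR line differed from that of the WT organoids. One enterocyte-like cluster (cluster 9) was of low depth, and Slc12a2 was among the 20 leading genes of the ISC-like cluster although it had been kept out of the clustering.

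The 9 transporters were highest in different cell classes. Slc26a6, Slc16a3, Slc26a3 and Slc4a4 were highest in enterocyte-like cells, Slc12a2 and Cftr in ISC-like cells, Slc16a1 in proliferating cells, and Slc4a7 and Slc4a2 in tuft-like cells, by the median of the 3 libraries without EIPA or Dox. In a single edgeR quasi-likelihood model over the 6 libraries with library as a block, 47 of the 54 contrasts of a class against ISC-like cells (9 genes in 6 classes) passed an adjusted p of 0.05, 27 of them higher and 20 lower than in ISC-like cells. The adjustment is Benjamini-Hochberg over all 13499 genes tested. With the 4 WT libraries alone, chosen after seeing the data, 47 contrasts passed again (27 higher, 20 lower), and the EEC-like calls were the same 8 genes in the same directions. In enterocyte-like cells all 9 transporters differed (7 higher, 2 lower), where 79.4% of all genes tested did. In goblet-like cells 9 differed (5 higher, 4 lower) against 55.2% of all genes, and in EEC-like cells 8 (4 and 4) against 71.8%. Tuft-like cells differed in 8 transporters (4 and 4) against 50.4% of genes, Paneth-like cells in 7 (3 higher, 4 lower) against 69.8% and proliferating cells in 6 (4 higher, 2 lower) against 49.1%. Most genes thus differed between classes, so the counts of transporters say little beyond it, and the sizes below carry the description.

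**Figure D1:**
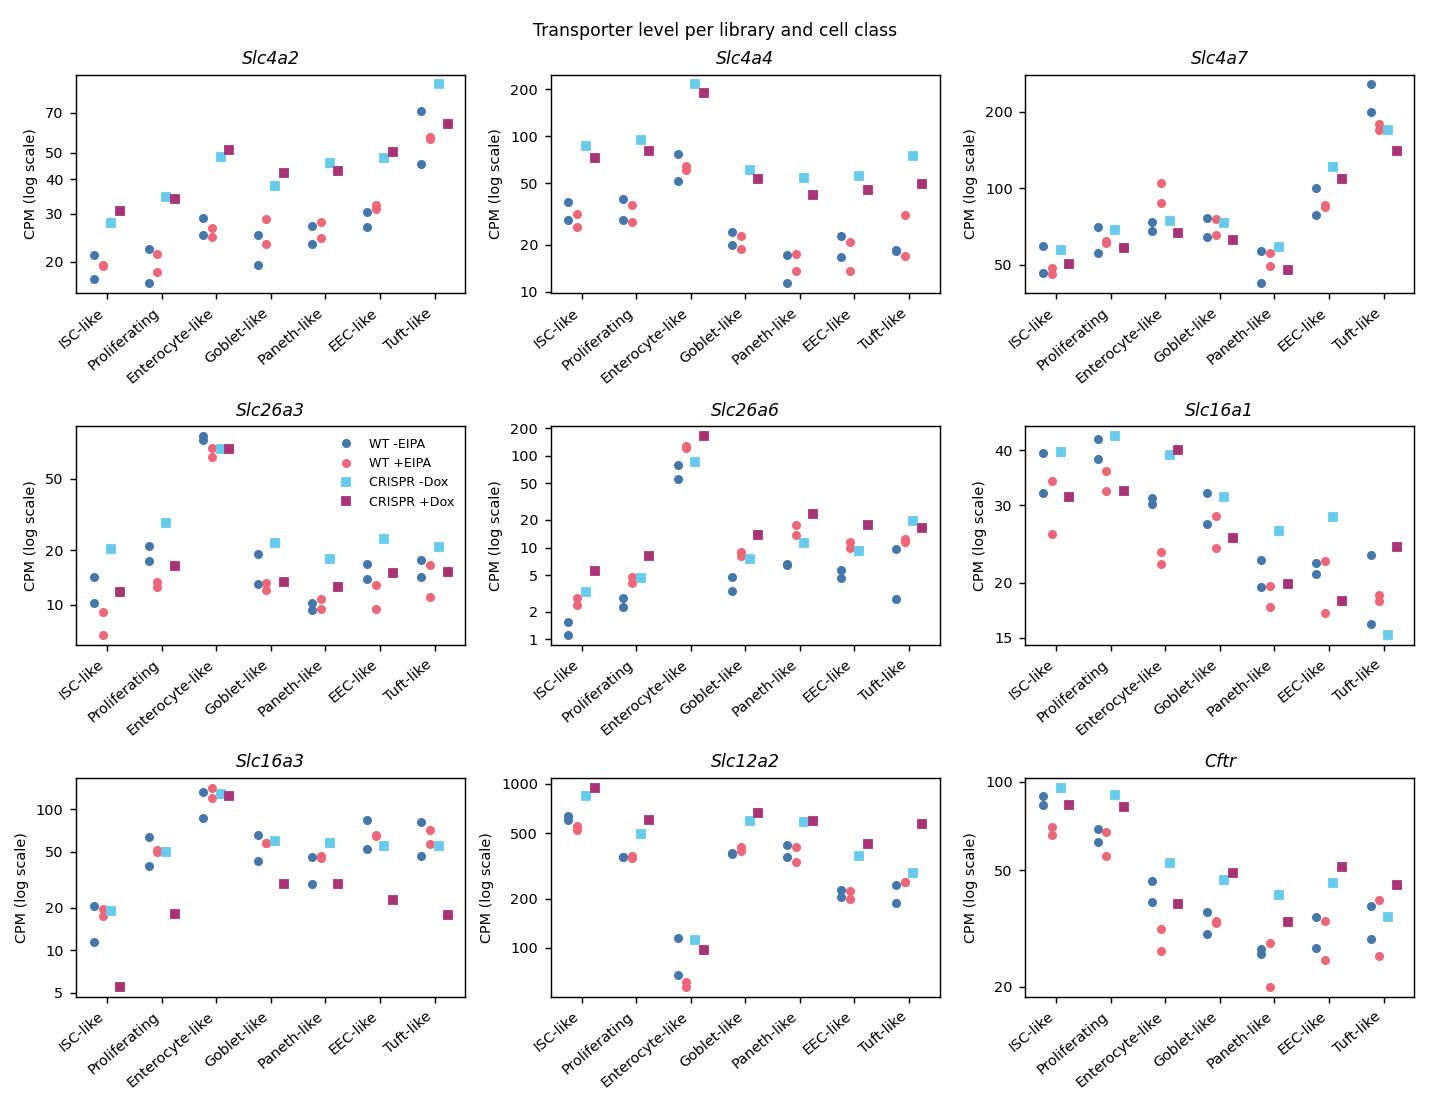
Level of each transporter (CPM, log scale) in the summed cells of each class, 1 point per library, coloured by group. Slc26a6 lies at 56.1 to 163 CPM in enterocyte-like cells and at 1.11 to 5.54 CPM in ISC-like cells, while Slc12a2 runs the other way.

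Slc26a6 encodes PAT1, the apical exchanger of chloride for bicarbonate and oxalate. In enterocyte-like cells it was counted at 78.9 and 56.1 CPM in WT -EIPA, 127 and 122 CPM in WT +EIPA, 85.0 CPM in CRISPR -Dox and 163 CPM in CRISPR +Dox. In ISC-like cells the same libraries gave 1.54 and 1.11, 2.84 and 2.35, 3.28 and 5.54 CPM, from 23 to 104 UMIs each. The classes did not overlap in any group, and the fitted difference was 5.61 ± 0.12 on the log2 scale (SE, 6 libraries), 49-fold, with an adjusted p of 1.2e-31 in edgeR. Paneth-like cells followed at 2.45 ± 0.13, tuft-like at 1.74 ± 0.24, EEC-like at 1.49 ± 0.16, goblet-like at 1.43 ± 0.14 and proliferating cells at 0.69 ± 0.13 above ISC-like cells, all past the threshold. In these classes the 20 enterocyte markers were also found, at 1345 to 8573 CPM in sum, and their part in the low Slc26a6 levels there was not tested.

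Slc26a3 encodes DRA, the other apical chloride/bicarbonate exchanger. Its enterocyte-like level was 85.8 and 81.5 CPM in WT -EIPA, 73.6 and 66.2 CPM in WT +EIPA, 73.4 CPM in CRISPR -Dox and 72.9 CPM in CRISPR +Dox. The next class in the untreated libraries, proliferating cells, reached 17.3 to 28.3 CPM and did not overlap it. Enterocyte-like cells exceeded ISC-like cells 8.25-fold (log2 3.04 ± 0.12, adjusted p = 6.35e-24 in edgeR). Among the other classes, proliferating (0.60 ± 0.12) and goblet-like cells (0.32 ± 0.13) were higher than ISC-like cells, and the Paneth-like, EEC-like and tuft-like differences did not pass the test. Scaling by library size turned the Paneth-like difference (0.20 ± 0.13) the other way and called Slc26a3 higher than in ISC-like cells in EEC-like (0.34, adjusted p = 0.0177) and tuft-like cells (0.47, adjusted p = 0.0304).

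Slc16a3, which encodes the lactate exporter MCT4, was lowest in ISC-like cells and highest in enterocyte-like cells. Untreated ISC-like cells held 20.6, 11.5 and 18.9 CPM (WT -EIPA 1 and 2, CRISPR -Dox), and untreated enterocyte-like cells held 134, 86.3 and 129 CPM. The difference was 10.8-fold (log2 3.43 ± 0.16, adjusted p = 3.19e-21 in edgeR), and the 5 other classes exceeded ISC-like cells by 1.56 to 1.74 on the log2 scale. Slc16a1, which encodes MCT1, which carries lactate either way, showed no such slope. It was highest in untreated proliferating (38.2 to 43.1 CPM) and ISC-like cells (32.1 to 39.8 CPM), whose ranges overlapped. It was lower than in ISC-like cells in EEC-like (-0.96 ± 0.09), tuft-like (-0.96 ± 0.13), Paneth-like (-0.48 ± 0.08) and goblet-like cells (-0.30 ± 0.08). In enterocyte-like cells Slc16a1 was called higher with TMM scaling (0.21 ± 0.08, adjusted p = 0.0132) and was lower without the call when scaled by library size (-0.12, adjusted p = 0.18) and in the 4 WT libraries alone (-0.03, adjusted p = 0.682). The same change of scaling moved the median of all genes in that contrast from 0.04 to -0.29.

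The 3 SLC4 genes load bicarbonate or trade it for chloride at the blood-facing membrane. Slc4a4, the sodium-bicarbonate cotransporter NBCe1, was highest in enterocyte-like cells, 2.79-fold over ISC-like cells (1.48 ± 0.07, adjusted p = 1.46e-21 in edgeR), and lower in EEC-like (-1.02), Paneth-like (-0.73), tuft-like (-0.71) and goblet-like cells (-0.55). Its level separated the lines: enterocyte-like cells held 77.1, 51.4, 64.4 and 60.8 CPM in the 4 WT libraries and 215 and 189 CPM in the CRISPR libraries, and the WT and CRISPR libraries did not overlap in any class. That difference was not tested. Slc4a7, the electroneutral cotransporter NBCn1, was highest in tuft-like cells at 257 and 199 CPM in WT -EIPA and 170 CPM in CRISPR -Dox, 3.14-fold over ISC-like cells (1.65 ± 0.12). By CPM, EEC-like cells came next (78.3 to 121 CPM) and enterocyte-like cells after them (68.0 to 74.3 CPM), with no overlap between these 3 classes. The fit with TMM scaling reversed the order of EEC-like (0.60 ± 0.11 over ISC-like cells) and enterocyte-like cells (0.97 ± 0.10). Library-size scaling gave 0.91 and 0.63, so this order depends on the scaling. The enterocyte-like range overlapped that of goblet-like cells (64.4 to 76.2 CPM). Slc4a2, the anion exchanger AE2, was also highest in tuft-like cells (2.44-fold, 1.29 ± 0.08), while the untreated ranges of all neighbouring classes overlapped.

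The pair that serves chloride secretion was highest in ISC-like cells. Slc12a2, the sodium-potassium-chloride cotransporter NKCC1 that loads chloride from the blood side, was counted in ISC-like cells at 603 and 639 CPM in WT -EIPA, 526 and 555 CPM in WT +EIPA, 841 CPM in CRISPR -Dox and 940 CPM in CRISPR +Dox. The same libraries gave 68.8 and 115, 57.9 and 62.3, 112 and 97.0 CPM in enterocyte-like cells. These ranges lay far apart, and enterocyte-like cells were 6.35-fold lower (-2.67 ± 0.10, adjusted p = 3.95e-24 in edgeR). All 5 other classes were lower than ISC-like cells too, from -0.40 in Paneth-like to -1.66 in EEC-like cells. Cftr, the chloride and bicarbonate channel at the luminal surface, stood at 89.2, 83.4 and 94.98 CPM in untreated ISC-like cells and at 69.2, 62.4 and 90.1 CPM in proliferating cells, ranges that overlapped. It was lower in enterocyte-like (-0.75 ± 0.08), goblet-like (-1.13 ± 0.08), Paneth-like (-1.29 ± 0.08), tuft-like (-1.41 ± 0.11) and EEC-like cells (-1.49 ± 0.08).

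Levels also differed between clusters of 1 class. Among enterocyte-like clusters, cluster 3, led by Gstm3, St3gal4 and Arg2, held Slc26a6 at 34.0 to 50.1 CPM in the untreated libraries, and cluster 4, led by Reg3a, Fabp1 and Apoc3, held 102 to 134 CPM. Slc12a2 was at 74.4 to 131 CPM in cluster 3 and at 32.7 to 65.5 CPM in cluster 4, and Cftr at 45.02 to 66.4 CPM and 21.7 to 31.0 CPM. Slc26a3 differed little between them, at 72.2 to 82.6 CPM and 75.0 to 94.6 CPM. The enterocyte-like cluster 9, which was of low depth, held Slc26a6 at 71.4 to 113 CPM and Slc26a3 at 68.9 to 112 CPM, but also Slc12a2 at 152 to 257 CPM, above both other clusters, and Cftr at 60.2 to 86.0 CPM, within the range of the proliferating clusters. The unnamed cluster 5, led by Dmbt1 and Krt19, lay between the proliferating and enterocyte-like clusters for Slc26a3 (41.0 to 54.2 CPM) and Slc26a6 (9.34 to 16.6 CPM).

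**Figure D2:**
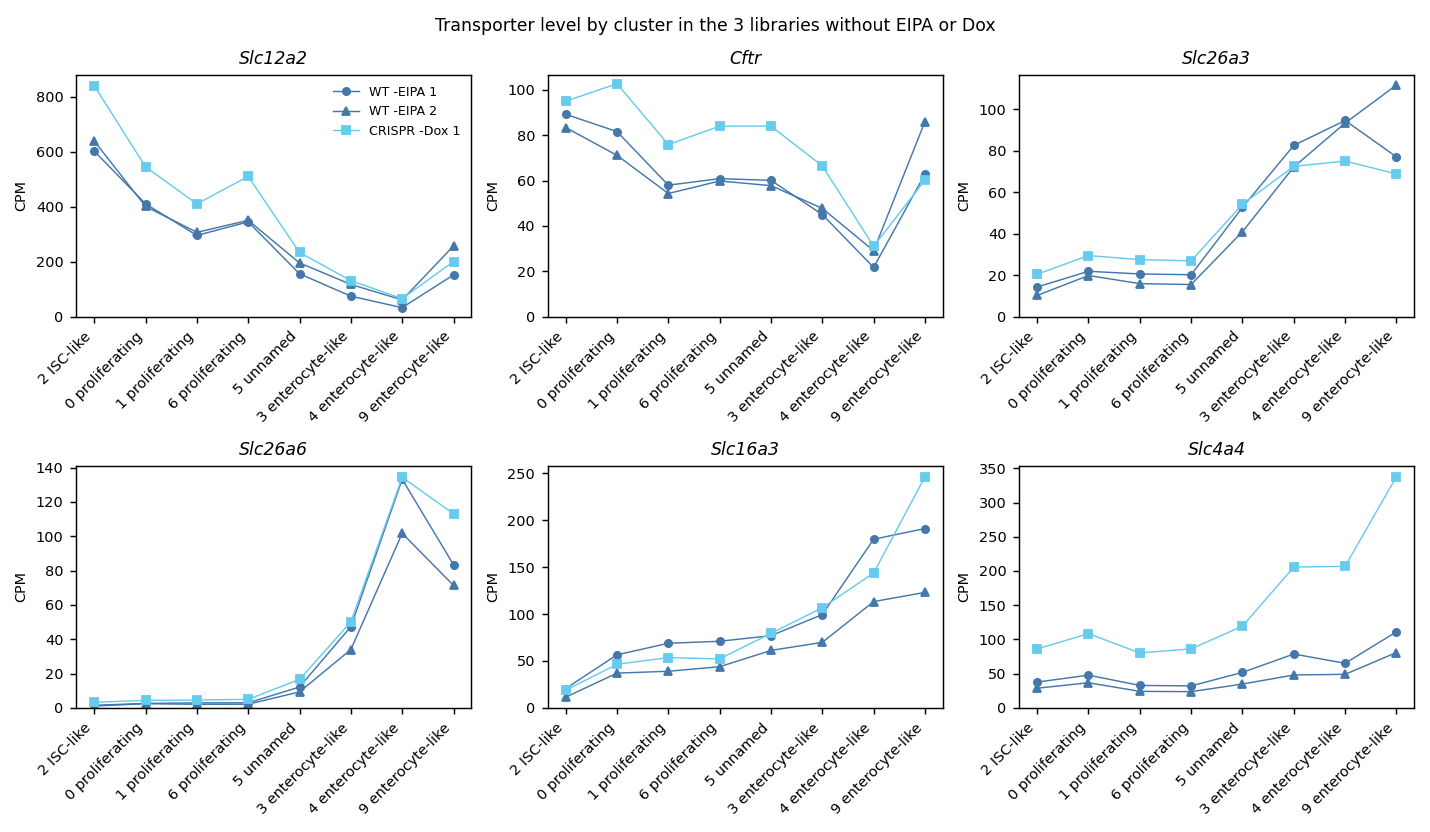
Level (CPM, linear axis from 0) of 6 transporters in 8 clusters of the 3 libraries without EIPA or Dox, with 1 symbol per library and lines that only join points of 1 library. Slc12a2 and Cftr are high in the ISC-like cluster and lowest in the enterocyte-like cluster 4, with cluster 9 above it, Slc26a3, Slc26a6 and Slc16a3 are high in the enterocyte-like ones, and the CRISPR line lies above the WT libraries for Slc4a4.

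The main question of the study was put to these genes by comparing WT +EIPA with WT -EIPA. Slc26a6 was higher with EIPA in all 7 classes, and it was the only transporter to pass the main test, in Paneth-like cells. Over all cells kept it stood at 19.5 and 11.8 CPM in WT -EIPA 1 and 2 and at 39.1 and 32.9 CPM in WT +EIPA 1 and 2. Both treated libraries thus lay above both untreated ones, by a log2 ratio of 1.00 in experiment 1 and 1.48 in experiment 2. In such sums more cells of a type and more transcript per cell cannot be told apart. The edgeR fit of the 4 libraries gave a log2 fold change of 1.29 ± 0.25 (SE, n = 2 per group) with an adjusted p of 0.263. No transporter of 9 was called over all cells, where 0% of the 15890 genes tested were called, 1601 genes, 2 of the transporters among them, had an unadjusted p under 0.05 and DESeq2 called 587. With the experiment as a block, the 2 libraries of an experiment being compared with each other, 5.28% of genes were called and Slc26a6 was the only transporter among them (1.33 ± 0.13, adjusted p = 0.021). DESeq2 called it as well (adjusted p = 3.80e-05).

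Within Paneth-like cells Slc26a6 rose from 6.60 and 6.52 CPM to 17.7 and 13.8 CPM, 2.53-fold (1.34 ± 0.16, adjusted p = 0.0229 in edgeR), and the groups did not overlap. It was 1 of 41 genes called in that class, 0.349% of those tested. With the 10% of cells of highest doublet score left out of each library the value was 1.22 ± 0.28 with an adjusted p of 0.471, and without WT -EIPA 2 it was 1.35 with an adjusted p of 0.163. The 20 enterocyte markers moved in the same direction in these cells, from 2936 and 2380 CPM to 5761 and 5350 CPM in sum, and their part in the result was not tested. Enterocyte-like cells themselves held Slc26a6 at 78.9 and 56.1 CPM without and 127 and 122 CPM with EIPA (1.02 ± 0.19, adjusted p = 0.104), and their marker sum went from 38292 and 25186 CPM to 55427 and 56936 CPM. Their share of cells was 20.7% and 15.5% without and 23.6% and 19.9% with EIPA. In ISC-like cells, where the marker sum was 1185 and 916 CPM without and 1264 and 1136 CPM with EIPA, Slc26a6 went from 1.54 and 1.11 CPM to 2.84 and 2.35 CPM (1.05 ± 0.32, adjusted p = 0.999). Barcodes with fewer than 1000 genes, which were not kept as cells, held Slc26a6 at 33.5 and 16.1 CPM without and 47.2 and 31.0 CPM with EIPA, and their part in the low levels of the other classes was not tested.

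Only 2 experiments enter the fit with the experiment as a block, so its p-values rest largely on spread pooled over genes. They do not measure how a single gene varied between experiments. In that fit Slc26a6 passed the threshold in 6 of the 7 classes. Its adjusted p was 0.0167 in ISC-like, 0.00758 in proliferating, 0.00358 in enterocyte-like, 1.35e-06 in goblet-like, 1.71e-11 in Paneth-like and 0.000813 in EEC-like cells, with log2 fold changes of 0.89 to 1.33. In tuft-like cells, with 8 to 28 UMIs per library, it was 1.28 ± 0.45 with an adjusted p of 0.484. The share of all genes called in the same fits was 6.03% in ISC-like, 5.04% in proliferating, 6.88% in enterocyte-like, 6.08% in goblet-like and 3.07% in Paneth-like cells, and it was 1.64% for EEC-like and 0.533% for tuft-like ones. Without the block 0% were called in ISC-like, 0% in proliferating, 0% in enterocyte-like and 0% in goblet-like cells, with 433, 623, 2122 and 792 genes at an unadjusted p under 0.05 in edgeR and 22, 106, 538 and 61 called by DESeq2. The unblocked edgeR fit called 0.0733% of genes for EEC-like and 0.041% for tuft-like cells. Clusters of the same libraries are not replicates, and how many genes keep their direction across clusters was not counted. Of the 19 clusters with at least 50 cells in all 4 WT libraries, Slc26a6 was higher with EIPA in both experiments in 18. The exception was the unnamed cluster 13, led by Clu, Anxa1 and Ly6a, with log2 ratios of -0.14 and 0.75. Inside the enterocyte-like clusters 3, 4 and 9 the ratios of experiments 1 and 2 were 0.79 and 1.17, 0.42 and 0.70, and 0.84 and 1.41. Cluster 4 also made up more of the enterocyte-like cells with EIPA, 35.4% and 37.0% against 28.3% and 20.6%.

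**Figure D3:**
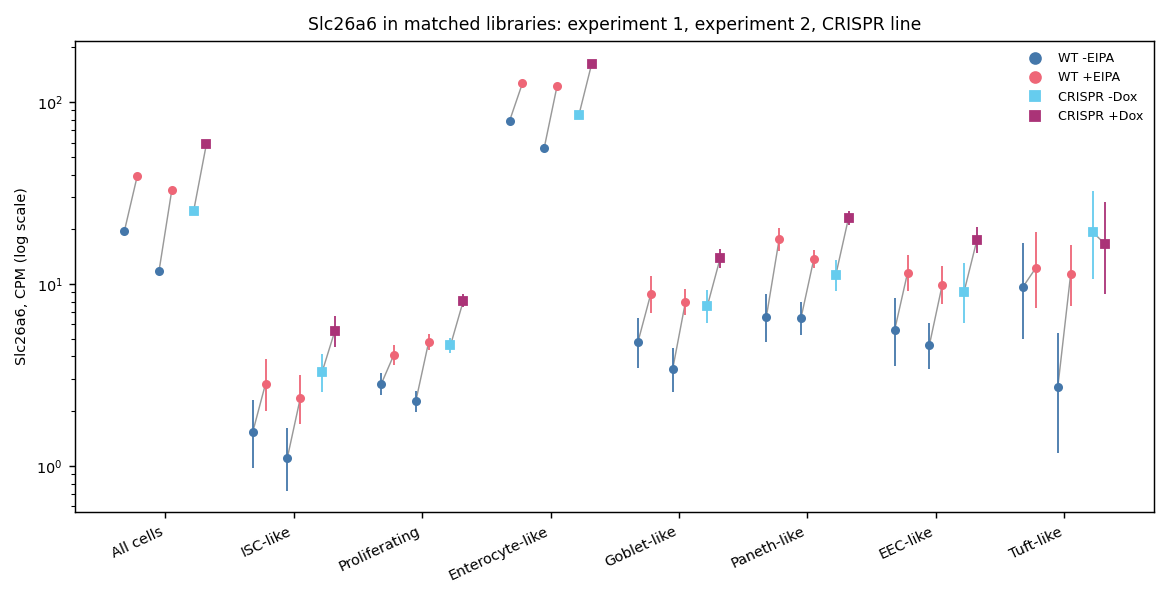
Slc26a6 (CPM, log scale) over all cells and in each class, with grey lines that join the matched libraries of experiment 1, experiment 2 and the CRISPR line, and bars for exact 95% Poisson intervals, which cover counting error only. The treated library lies above its match in every pair except the CRISPR pair of tuft-like cells (19.4 and 16.5 CPM).

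The other 8 transporters were called in no class in the main fit, and their differences were smaller. Slc26a3 was lower with EIPA in ISC-like cells, from 14.3 and 10.2 CPM to 9.10 and 6.78 CPM, and in proliferating cells, from 21.1 and 17.3 CPM to 13.4 and 12.5 CPM. The groups did not overlap in either class, the main fits gave -0.56 ± 0.22 (adjusted p = 0.999) and -0.50 ± 0.11 (adjusted p = 0.62), and the blocked fits called both (adjusted p = 0.00394 and 0.00351). With 1 library left out the ISC-like value lay between -0.78 (without WT -EIPA 2) and -0.31 (without WT -EIPA 1). In the barcodes with fewer than 1000 genes Slc26a3 was also lower with EIPA, at 43.0 and 27.3 CPM without and 23.3 and 19.1 CPM with it, and their part in the lower class levels was not tested. In enterocyte-like cells, where Slc26a3 is highest, the difference was -0.12 ± 0.13 (adjusted p = 0.68). The CPM values of the groups, given above, did not overlap there either, and library-size scaling gave -0.26 (adjusted p = 0.284 in edgeR). The 2 apical exchangers therefore went opposite ways in ISC-like and proliferating cells in the blocked fit, and Slc26a3 was lower with EIPA in both experiments in 16 of the 19 clusters. The cluster ratios are of CPM, and with library-size scaling the median of all genes was also lower with EIPA.

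Slc4a7 was higher with EIPA in enterocyte-like cells, from 68.0 and 73.5 CPM to 87.8 and 105 CPM. The groups did not overlap, and the fold change was 0.60 ± 0.15 with an adjusted p of 0.158, or 0.59 ± 0.13 with 0.0227 in the blocked fit and 0.0164 in DESeq2. In ISC-like cells its values were 59.6 and 46.5 CPM without and 48.8 and 45.8 CPM with EIPA, which overlap. A test of the difference between these effects (class by EIPA interaction in edgeR) gave 0.70 ± 0.17 with an adjusted p of 0.0605. No transporter of 9 was called in that test, where 1.74% of 13147 genes were called, 2460 had an unadjusted p under 0.05 and DESeq2 called 258 genes, Slc4a7 among them (adjusted p = 0.0278). For Slc26a6 the interaction was 0.04 ± 0.26 (adjusted p = 0.952), and for Slc26a3 it was 0.46 ± 0.18 (adjusted p = 0.195). With clusters made without batch correction they were -0.77 ± 0.46 and -0.0048 ± 0.31, again uncalled.

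Cftr was lower with EIPA in ISC-like cells, at 89.2 and 83.4 CPM without and 70.3 and 65.8 CPM with it (-0.28 ± 0.09, adjusted p = 0.999, blocked adjusted p = 0.00234). In enterocyte-like cells it went from 38.9 and 46.0 CPM to 31.4 and 26.4 CPM (-0.41 ± 0.14, adjusted p = 0.235, blocked 0.0982). Slc12a2 in enterocyte-like cells went from 68.8 and 115 CPM to 57.9 and 62.3 CPM (-0.46 ± 0.23, adjusted p = 0.374), groups that lay apart by less than the untreated libraries differed from each other. This value was -0.74 without WT -EIPA 1 and -0.08 without WT -EIPA 2. Beside both genes, the 18 ISC markers in enterocyte-like cells summed to 383 and 718 CPM without and 425 and 369 CPM with EIPA, and cluster 4, where both genes are lowest, made up more of these cells with EIPA, as given above. The part of either in these differences was not tested. Slc16a3 in Paneth-like cells went from 45.8 and 29.7 CPM to 46.4 and 44.9 CPM (0.39 ± 0.19, adjusted p = 0.999, blocked 0.42 ± 0.13 and 0.0427), with experiment 1 hardly moving (log2 ratio 0.02). It was 0.69 without WT -EIPA 1 and 0.12 without WT -EIPA 2. Slc16a1 was lower with EIPA in both experiments in 15 of 19 clusters and at -0.24 ± 0.09 over all cells (adjusted p = 0.493, blocked 0.0587). The cluster ratios are of CPM, and with library-size scaling the median of all genes was itself -0.09 over all cells. Slc4a2 and Slc4a4 differed by at most 0.41 on the log2 scale in any class, uncalled in both fits. Their direction turned with library-size scaling for Slc4a4 over all cells and in enterocyte-like cells and for Slc4a2 in enterocyte-like cells. The median of the 9 transporters was 0.05 over all cells, against 0.00 for all genes tested.

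**Figure D4:**
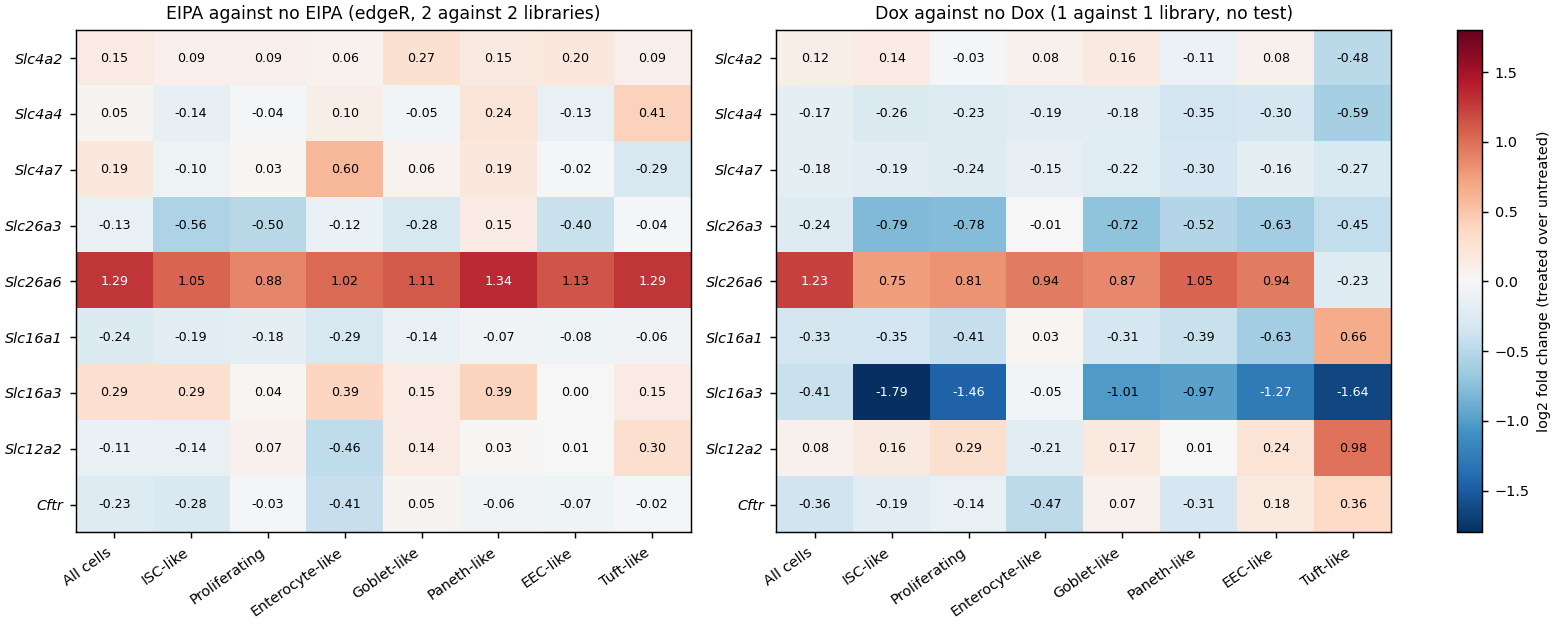
Log2 fold changes of the 9 transporters over all cells and in each class, for EIPA (left, edgeR fit of 2 against 2 libraries) and for Dox in the CRISPR line (right, 1 against 1 library, no test). Slc26a6 is positive throughout except with Dox in tuft-like cells, and Slc16a3 reaches -1.79 with Dox in ISC-like cells.

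In the CRISPR line there was 1 library with Dox and 1 without, so no test was possible, and GFP gating was applied to the first only. Intervals here are exact 95% Poisson intervals that cover counting error only. The classes compared come from clusters made after correction by library. Without that correction, an ISC-like cluster was 97.7% CRISPR +Dox cells and a proliferating cluster 98.6%. Slc26a6 showed the largest excess of the 9 genes: over all cells it stood at 25.3 CPM (24.6 to 25.9) without and 59.2 CPM (58.3 to 60.2) with Dox, a log2 ratio of 1.23. Among the 9 transporters it was the only one past 1.5-fold over all cells, where 6.24% of genes with a mean of at least 10 CPM were. The 20 enterocyte markers went from 10775 to 22167 CPM in sum, and the enterocyte-like share of cells from 25.1% to 28.6%. Within enterocyte-like cells, too, it was the only transporter past 1.5-fold (85.0 against 163 CPM), where 14.9% of genes were, and cluster 4 made up 32.4% of those cells without and 51.6% with Dox. The ratio was 0.75 in ISC-like, 0.81 in proliferating, 0.87 in goblet-like, 1.05 in Paneth-like and 0.94 in EEC-like cells (the class low in its own markers in this line), and it was -0.23 in tuft-like cells, where alone the intervals overlapped (14 and 13 UMIs).

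Slc16a3, the lactate exporter, was lower with Dox in the crypt classes. In ISC-like cells it went from 18.9 CPM (17.1 to 20.8, 415 UMIs) to 5.48 CPM (4.47 to 6.65, 103 UMIs), a log2 ratio of -1.79, and in proliferating cells from 50.01 to 18.2 CPM (-1.46). The ratio was -1.64 in tuft-like, -1.27 in EEC-like, -1.01 in goblet-like and -0.97 in Paneth-like cells, each with intervals apart. In enterocyte-like cells the intervals overlapped, at 129 CPM (126 to 133) and 125 CPM (122 to 128). Barcodes with too few genes to be kept as cells also held less Slc16a3, at 127 CPM without and 78.9 CPM with Dox. The intervals of these barcodes were apart, and their part in the lower class levels of Slc16a3 was not tested. With EIPA the ISC-like level had been 20.6 and 11.5 CPM without and 19.7 and 17.4 CPM with the inhibitor, ranges that overlap. Slc26a3 was also lower with Dox, from 20.5 to 11.8 CPM in ISC-like cells (-0.79) and from 28.3 to 16.4 CPM in proliferating cells (-0.78), and was 73.4 and 72.9 CPM in enterocyte-like cells. In ISC-like cells, Slc16a3 and Slc26a3 were the 2 transporters past 1.5-fold among the 8 with a mean of at least 10 CPM there, where 2.08% of genes were. The same 2 were past it among 8 in proliferating cells (2.8% of genes), with Slc26a6 among 9 in goblet-like cells (3.11%), while Slc16a3 and Slc26a6 were past it in Paneth-like cells (3.52%). In EEC-like cells 4 of 9 were (4.23% of genes), namely Slc26a3, Slc26a6, Slc16a3 and Slc16a1, the last from 28.2 to 18.2 CPM. In tuft-like cells 22.9% of genes were past 1.5-fold and so were 4 of 9 transporters. Of these, Slc4a4 (74.8 and 49.5 CPM) and Slc16a1 (15.2 and 24.1 CPM) had intervals that overlapped, and Slc16a3 and Slc12a2 did not. Slc12a2 ran from 112 to 97.0 CPM in enterocyte-like cells and from 288 to 569 CPM in tuft-like cells, the latter from 208 and 448 UMIs in 72 and 55 cells.

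The wider families were read from a list of 67 genes: relatives in the SLC4, SLC26, SLC16 and SLC12 families, chloride channels, and partners such as scaffold proteins, kinases and potassium channels. Chloride channels here means genes of chloride channel families, and not each is a chloride channel alone, since Ano6 is also a scramblase. Of the 67 genes, 43 could be tested between classes. In enterocyte-like against ISC-like cells 26 were higher and 10 lower, with a median of 0.34 against 0.04 for all genes, and 11 of the 13 chloride channels tested were higher. Of all 13499 genes, 79.4% were called in that contrast, 5550 higher and 5163 lower, so the share of relatives called is close to that of all genes. Scaled by library size, 3925 of all genes were higher and 7014 lower, with 18 and 11 of the relatives and 7 and 2 of the chloride channels. With EIPA over all cells 55 were tested and none was called in the main edgeR fit, where the count with an unadjusted p under 0.05 was 5. DESeq2 called 2, both higher. The blocked fit called 4 of them higher: Pdzk1, Ano1, Slc12a4 and Slc4a11, a share close to the 5.28% of all genes called there. Pdzk1, a scaffold protein that binds transporters at the brush border, was at 1.30 and 0.28 CPM without and 4.94 and 4.00 CPM with EIPA (2.86 ± 0.47, adjusted p = 0.0428), and at 1.65 CPM without and 11.9 CPM with Dox. Ano1, a calcium-activated chloride channel, was at 2.41 and 4.42 CPM without and 3.45 and 6.24 CPM with EIPA (0.59 ± 0.09, adjusted p = 0.038), so that the untreated and treated ranges overlapped across experiments. The other two were under 1 CPM in every library.

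In enterocyte-like cells the blocked fit called 7 of the 40 relatives tested, 5 higher and 2 lower, where 6.88% of all genes were called. The main fit called none, with 10 at an unadjusted p under 0.05, and DESeq2 called 4. Pdzk1 went from 5.37 and 1.58 CPM to 16.8 and 16.6 CPM (2.56 ± 0.33, adjusted p = 0.00215) and, with Dox, from 5.28 to 34.0 CPM. Slc16a10, an aromatic amino acid carrier, went from 17.2 and 13.2 CPM to 23.0 and 32.0 CPM (1.00 ± 0.20, adjusted p = 0.0143), Slc26a2, a sulfate carrier, from 15.7 and 14.7 CPM to 21.0 and 25.2 CPM (0.74 ± 0.15, adjusted p = 0.0156) and Ano6, a phospholipid scramblase and ion channel, from 71.7 and 68.0 CPM to 85.9 and 103 CPM (0.57 ± 0.14, adjusted p = 0.036). The groups of all 4 were apart. Slc16a6, a ketone body carrier, was called at 0.65 ± 0.17 (adjusted p = 0.0493) although its libraries overlapped (24.2 and 9.11 CPM without, 27.9 and 16.3 CPM with EIPA). The potassium channels Kcnn4 and Kcnq1, which drive chloride secretion from the blood side, were lower: Kcnn4 went from 24.0 and 33.5 CPM to 16.4 and 12.3 CPM (-0.86 ± 0.18, adjusted p = 0.0189) and Kcnq1 from 23.2 and 24.8 CPM to 15.8 and 12.3 CPM (-0.64 ± 0.14, adjusted p = 0.0254). Kcne3, the subunit that pairs with Kcnq1, was at -0.45 ± 0.16 (adjusted p = 0.118), and Ldha, the enzyme that makes lactate, at 0.34 ± 0.16 (adjusted p = 0.249).

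Elsewhere the unblocked edgeR fits called no relative. Pdzk1 in Paneth-like cells had an adjusted p of 0.0595 in edgeR and was called by DESeq2 (adjusted p = 0.0161). The blocked fits called 2 of 46 in proliferating, 1 of 38 in goblet-like and 1 of 38 in Paneth-like cells, against 5.04%, 6.08% and 3.07% of all genes. These were Pdzk1 and the kinase Stk39 (SPAK), which activates NKCC1, in proliferating cells (Stk39 0.24 ± 0.06, adjusted p = 0.0404), Slc26a2 in goblet-like cells (0.26 ± 0.09, adjusted p = 0.0488) and Pdzk1 in Paneth-like cells. Pdzk1 had 0 UMIs in the Paneth-like cells of both WT -EIPA libraries and 21 and 27 UMIs with EIPA, so no fold change is given. No relative was called in ISC-like, EEC-like or tuft-like cells, with 37, 39 and 30 tested. With Dox over all cells, none of the 25 relatives with a mean of at least 10 CPM passed 1.5-fold, and their median log2 ratio was 0.07 against -0.08 for all genes.

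The genes most like each transporter, by Pearson correlation of log2(CPM + 1) over 42 sums (6 libraries by 7 classes, which share libraries and depth) among 7814 genes with a mean of at least 10 CPM, were as follows. Slc26a6 was most like the enterocyte genes Fabp1 (r = 0.984) and Cyp4f14 (0.979), of which Fabp1 is on the enterocyte marker list. Slc26a3 was nearest to Bpnt1 (0.954), Pcsk5 (0.9498) and Aqp11 (0.939). Slc16a3 was nearest to Cyp2s1 (0.928), Egln3 (0.922), an oxygen-sensing prolyl hydroxylase, and Ak4 (0.918), a mitochondrial adenylate kinase. Slc12a2 was nearest to Rfc1 (0.945), Rgmb (0.940), a stem cell marker used here, and Prps2 (0.926), and Cftr to Jaml (0.921), Nadk2 (0.912) and Atad3a (0.911). Slc4a4 was nearest to Cox6a1 (0.946), Tprkb (0.930) and Atp5k (0.923), and Slc4a7 to Stk38 (0.924), Abhd16a (0.911) and Wwp2 (0.909). Slc4a2 was nearest to Atp8a1 (0.909), Lrch4 (0.899) and Hip1r (0.894), and the weakest likeness was that of Slc16a1, to Smpdl3b (0.820), Mcrip2 (0.803) and Tfrc (0.794).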

How the data were processed

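Single-cell 3′ libraries (10x Genomics v3.1) of 6 organoid samples were compared. The authors deposited raw UMI counts per gene and barcode, made with Cell Ranger 6.1.2 on mm10, and applied no normalization to them. A barcode was kept as a cell if it had at least 1000 genes and if less than 20% of its UMIs were mitochondrial (12083 to 18211 of 14319 to 25481 per library). Cells were clustered with custom Python code using numpy 2.4.6, scikit-learn 1.9.0 and igraph 0.11.9, leaving out 77 genes. The steps were Pearson residuals, 3000 variable genes, 45 principal components, a reimplemented Harmony-type correction by library and Leiden clustering (resolution 0.8). Clusters were named from fixed marker lists. Doublets were scored with Scrublet in scanpy 1.11.5. Its automatic threshold marked at most 1 cell in 3 libraries and 10.7% to 12.5% in the others, so doublets were kept. Removing the 10% of highest score per library was an alternative chosen after seeing the data.

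UMI counts were summed per library and class, and sums of under 50 cells were left out. The sums were tested with edgeR 4.0.16 (filterByExpr, TMM, quasi-likelihood F test, two-sided, Benjamini-Hochberg over all genes tested, threshold 0.05) in R 4.3.3, with DESeq2 1.42.0 as an alternative, and the script was checked on simulated counts. Values after ± are standard errors. For edgeR they were derived from the fold change and the F statistic, and are unreliable where the fold change is near zero. CPM uses all UMIs of the sum, and exact 95% Poisson intervals cover counting error only. The class model used all 6 libraries and the EIPA models the 4 WT libraries. With 1 library per group, Dox was described by fold (1.5-fold, mean of at least 10 CPM).

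The replicate numbers pair libraries by experiment in the study's source data. Deviations from the group mean correlated between libraries of 1 number at 0.690 over all cells and at 0.172 (tuft-like) to 0.737 (proliferating) within classes, so values with the experiment as a block are given where they change a call.

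The members and all gene lists were chosen with earlier results of these data known. Relatives are named if past the threshold in a reported EIPA fit, or if among the 3 largest rises or falls over all cells at a mean of at least 10 CPM; the 3 genes of highest correlation are named for each transporter. Gene positions are from GENCODE vM21 and promoters from RefSeq (GRCm38.p6), where the 8 transporters looked up matched 10 windows. No sequence of Slc12a2 was used. The check of the gene targeted in the CRISPR line and 1 of the genes of highest correlation are not reported here.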

Additional observations from a re-analysis of the deposited data

Results flagged for a closer look

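Of 42 genes of the wider list that were tested, Slc16a10 and Slc26a2 had an EIPA effect in enterocyte-like cells that differed from that in ISC-like cells, by edgeR's test of the interaction over the 4 WT libraries. For Slc16a10, an aromatic amino acid carrier, the difference was 1.36 ± 0.25 on the log2 scale (adjusted p = 0.0239), with 17.2 and 13.2 CPM without and 23.0 and 32.0 CPM with EIPA in enterocyte-like cells, and 10.9 and 11.6 CPM against 9.55 and 8.01 CPM in ISC-like cells. For Slc26a2, a sulfate carrier, it was 1.03 ± 0.19 (adjusted p = 0.026), with 15.7 and 14.7 CPM against 21.0 and 25.2 CPM in enterocyte-like and 29.1 and 24.4 CPM against 23.9 and 18.9 CPM in ISC-like cells. In the same test 229 of 13147 genes (1.74%) were called, and 40 with clusters made without batch correction, where Slc16a10 was no longer called (0.89 ± 0.31, adjusted p = 0.363) and Slc26a2 was (1.33 ± 0.26, adjusted p = 0.019). Each gene was higher with EIPA in both experiments in the first class and lower in both in the second.

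Barcodes with fewer than 1000 genes, which enter none of the comparisons, also held more Slc26a6 in the treated libraries. The level was 47.2 CPM in WT +EIPA 1 against 33.5 CPM in WT -EIPA 1, 31.0 CPM in WT +EIPA 2 against 16.1 CPM in WT -EIPA 2, and 69.9 CPM in CRISPR +Dox against 40.8 CPM in CRISPR -Dox, with exact Poisson intervals apart in each pair. Such intervals were also apart for Slc16a3 in experiment 2 (72.5 CPM with and 56.8 CPM without EIPA) and for Slc12a2 in the CRISPR line (438 CPM with and 374 CPM without Dox), both higher in the treated library. In the other direction, Slc26a3 was lower with EIPA in both experiments (23.3 against 43.0 CPM and 19.1 against 27.3 CPM). Slc4a4 was lower with EIPA in experiment 1 (44.4 against 55.3 CPM). In experiment 2, Slc12a2 (226 against 347 CPM), Cftr (35.6 against 56.5 CPM) and Slc16a1 (19.3 against 32.0 CPM) were lower with EIPA. With Dox, Slc4a4 (83.45 against 142 CPM), Slc16a3 (78.9 against 127 CPM) and Cftr (53.7 against 75.2 CPM) were lower. Intervals were apart in each of these pairs.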

How the results depend on the processing

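Over all cells, 0 transporters were called in the main fit and 1 (Slc26a6) with DESeq2, with no filter on low counts and with the replicate block. With no filter, 198 of 22851 genes were called. Within classes 1 gene and class pair was called, against 4 with DESeq2, 4 with no filter, 11 with the replicate block (8 higher, 3 lower) and 0 without the highest doublet scores. With no filter, 1172 of 19074 genes were called in enterocyte-like, 311 of 17748 in goblet-like and 276 of 17666 in Paneth-like cells. Fits without 1 library leave 1 library in a group, and their counts of calls are not listed here. The difference of EIPA effects gave 0 calls, and 1 (Slc4a7) with DESeq2, without the highest doublet scores and at resolution 1.2. Over all genes the main, blocked and DESeq2 fits called 0, 839 and 587 over all cells, 0, 718 and 22 in ISC-like, 0, 687 and 106 in proliferating, 0, 876 and 538 in enterocyte-like, 0, 717 and 61 in goblet-like, 41, 360 and 85 in Paneth-like, 9, 201 and 21 in EEC-like, and 4, 52 and 5 in tuft-like cells. In the test of the difference of effects, 229 genes were called, 620 without the highest doublet scores, 634 at resolution 1.2 and 40 with no batch correction. Over all cells Slc4a4 (0.05) turned to -0.031 with library-size scaling and ranged from -0.20 to 0.35 with 1 library left out, Slc26a3 (-0.13) from -0.29 to 0.048 and Slc16a3 (0.29) from -0.0079 to 0.67; none of these was called, and the cause was not tested. The fold change of Slc26a6 was positive in all 101 alternatives (0.36 to 2.17) and past the threshold in 26. These alternatives re-fit the same 4 WT libraries or parts of them, so their signs are not independent. The class contrasts called 42 to 50 pairs under the alternatives against 47. The replicate block changed no call beyond those given in the report. Removal of doublets by the automatic threshold was not run. In the WT libraries, Slc26a6 had 8 to 28 UMIs in the tuft-like and 23 to 42 UMIs in the ISC-like sums, so counting error is part of the spread there.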

Other observations

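In the unnamed cluster 13, led by Tm4sf4, Sprr1a, Lgals3, Clu and Anxa1, Slc26a6 and Slc16a3 stood far above their ISC-like levels. Slc26a6 was at 89.2 and 27.4 CPM in WT -EIPA (98 and 234 cells), 81.1 and 46.1 CPM in WT +EIPA (376 and 647 cells), 56.3 CPM in CRISPR -Dox (228 cells) and 97.0 CPM in CRISPR +Dox (343 cells). Slc16a3 was at 195 and 56.6, 133 and 79.6, 148 and 101 CPM in the same libraries, and Cftr at 6.92 and 41.7, 21.6 and 21.8, 86.0 and 28.2 CPM. For each of the 3 genes the 2 WT -EIPA libraries were farther apart than the 2 WT +EIPA libraries.

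Cftr was higher in the unnamed cluster 11 than in any named cluster, at 119 and 156 CPM in WT -EIPA, 164 and 131 CPM in WT +EIPA, 188 CPM in CRISPR -Dox and 135 CPM in CRISPR +Dox. Slc12a2 was at 551 to 909 CPM there. The cluster was led by mitochondrial transcripts, its cells had a median depth of 0.307 times that of their library, and it held 76 to 788 cells per library.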
